A study of Rattus norvegicus with 6 samples.

Results

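The actin isoforms compared here are the genes Acta1, Acta2, Actb, Actc1, Actg1 and Actg2, taken by name from the 12958 named genes of the deposited sheet and not by their values. Of these 6 genes, 5 had a row and all 5 were among the 10725 genes tested, and Acta2, the α-actin of vascular smooth muscle, had no row and is not analysed here. RNA sequencing covered right ventricular (RV) tissue of SuHx rats taken at 8 weeks, the stage the study classes as maladaptive (3 libraries, called A, B and C here because their labels do not tie a column to a numbered rat), and of healthy control rats taken at day 0 (3 libraries, controls 1, 2 and 3). All were male Sprague-Dawley rats. The SuHx rats had received the vascular endothelial growth factor receptor inhibitor SU5416, a period of normobaric hypoxia and a return to normoxia, and the controls were taken at the start, so model and elapsed time cannot be told apart in any difference given below. Whether each library came from a rat of its own is not stated for single libraries, so p-values speak of the scatter of these libraries alone, part of which may be technical.

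Actin monomers assemble into the thin filaments of the sarcomere and into the cytoskeleton of every cell, and mammals make them from 6 genes whose proteins are nearly alike. Actc1 encodes the cardiac α-actin of the adult heart muscle cell. Acta1 encodes the skeletal α-actin, which also lies in the thin filament and belongs to the genes of the fetal heart that adult myocardium is known to use again under load. Acta2 and Actg2 encode the vascular and enteric smooth muscle actins, and Actb and Actg1 the β- and γ-actins of the cytoplasm of all cells. Their transcription is known to respond to serum response factor (SRF), which binds a DNA element called the CArG box and works with cofactors of the MRTF family that sense unbound actin monomers. Because the coding sequences of these genes are so alike, a read can match several of them, and the split of such reads between isoforms by the authors' counting could not be checked and was not tested.

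RefSeq promoters of the assembly GRCr8 (250 bases before to 20 bases after the annotated start, 5′ to 3′ on the strand of the gene) are shown for Acta1, which differed between the groups, and for Actc1 and Actg1, which did not pass the test. Among the isoforms whose window was held, these were the ones with a full CArG box in it. No window was held for Actb, so it was not searched. The CArG box is in capitals, and Acta1 lies on the minus strand at chr19:68784175-68784444, Actc1 on the minus strand at chr3:121271808-121272077 and Actg1 on the minus strand at chr10:106120932-106121201.
Acta1: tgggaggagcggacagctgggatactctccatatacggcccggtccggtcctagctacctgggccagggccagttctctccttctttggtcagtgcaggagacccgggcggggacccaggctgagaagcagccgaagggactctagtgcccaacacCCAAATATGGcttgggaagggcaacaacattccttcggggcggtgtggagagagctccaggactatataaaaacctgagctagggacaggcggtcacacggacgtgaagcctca
Actc1: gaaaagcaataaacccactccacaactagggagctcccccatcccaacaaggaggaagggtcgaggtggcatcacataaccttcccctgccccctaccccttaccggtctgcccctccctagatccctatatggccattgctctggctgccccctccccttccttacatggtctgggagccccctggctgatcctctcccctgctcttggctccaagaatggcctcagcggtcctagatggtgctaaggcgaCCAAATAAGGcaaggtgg
Actg1: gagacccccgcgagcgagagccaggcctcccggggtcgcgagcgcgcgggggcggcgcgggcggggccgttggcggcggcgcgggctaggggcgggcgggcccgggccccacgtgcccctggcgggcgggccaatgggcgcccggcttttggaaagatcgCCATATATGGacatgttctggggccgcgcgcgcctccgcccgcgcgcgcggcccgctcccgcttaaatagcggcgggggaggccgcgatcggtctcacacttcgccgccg

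A promoter was held for 5 of the 6 genes, all but Actb, and nothing is said here of the Actb promoter. The CArG box, searched on both strands by its full consensus, lay at bases -94 to -85 from the annotated start of Acta1, at -90 to -81 of Actg1 and at 3 to 12, just inside the annotated transcript, of Actc1, and no full match lay in the window of Acta2. The window held for Actg2 lies inside the annotated gene and not at its 5′ end, so nothing is read from it. Of 33469 rat promoters of the same length, 1.56% held one. The TATAAA letters, in 13.4% of those promoters on either strand, were found at -29 to -24 of Acta1 and not in the windows of Acta2, Actc1 and Actg1. The MCAT letters CATTCC, in 13.1% of them, lay at -67 to -62 of Acta1 and, on the other strand, at -196 to -191 of Acta2. A match is a description of letters, and its absence says nothing of the factor.

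Acta1 was higher in the SuHx RV than in control RV, and it was the only isoform of the 5 that passed the test. Acta1 was at 72990, 21077 and 23787 normalised counts in SuHx libraries A to C, against 1592, 6589 and 2766 normalised counts in controls 1 to 3. Every SuHx library lay above every control, with the lowest SuHx library 3.20 times the highest control. SuHx A stood far above SuHx B and C, and control 2 above controls 1 and 3. It averaged 39285 ± 29221 normalised counts over the SuHx libraries and 3649 ± 2613 over the controls (SD, n = 3 each), a 10.8-fold ratio. On the scale of log2(normalised count + 1) the log2 fold change was 3.43 (standard error 0.62, 95% interval 1.98 to 4.89), with an adjusted p of 0.0403 from limma (Benjamini-Hochberg, all 10725 genes). Of the genes tested, 1.55% were higher in SuHx at an adjusted p under 0.05, 2.22% were called in either direction, in 12.9% every SuHx library lay above every control, and in 24.6% the groups did not overlap in either direction. By log2 fold change Acta1 ranked 56 among these genes, whose median was 0.0095. An exact permutation test of 3 against 3 libraries gave p = 0.1 (two-sided), the smallest such a design allows. With the study's stricter cutoffs (adjusted p under 0.01, more than 2-fold) set on these limma values, Acta1 missed them, and 0.27% of genes met them. The study set them on the Wald test of DESeq2, which was not run here, so whether Acta1 met its rule is not known from this. Its direction was the same in every alternative run, but its call was not. Without SuHx A, the library of highest Acta1, the log2 fold change was 2.87 (adjusted p = 0.110 from limma). Without SuHx B the adjusted p was 0.0918, without SuHx C 0.142, without control 1 0.0869 and without control 3 0.0581, with log2 fold changes of 2.96 to 3.76, and it passed without control 2 (log2 fold change 3.98, adjusted p = 0.0421). With no mean-variance trend the adjusted p was 0.0803 and with robust moderation 0.0531, whereas Acta1 passed under all 4 other scalings of the libraries (adjusted p from 0.0188 to 0.0410). In whole tissue, a larger share of cells that use a gene and more RNA per cell cannot be told apart.

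**Figure D1:**
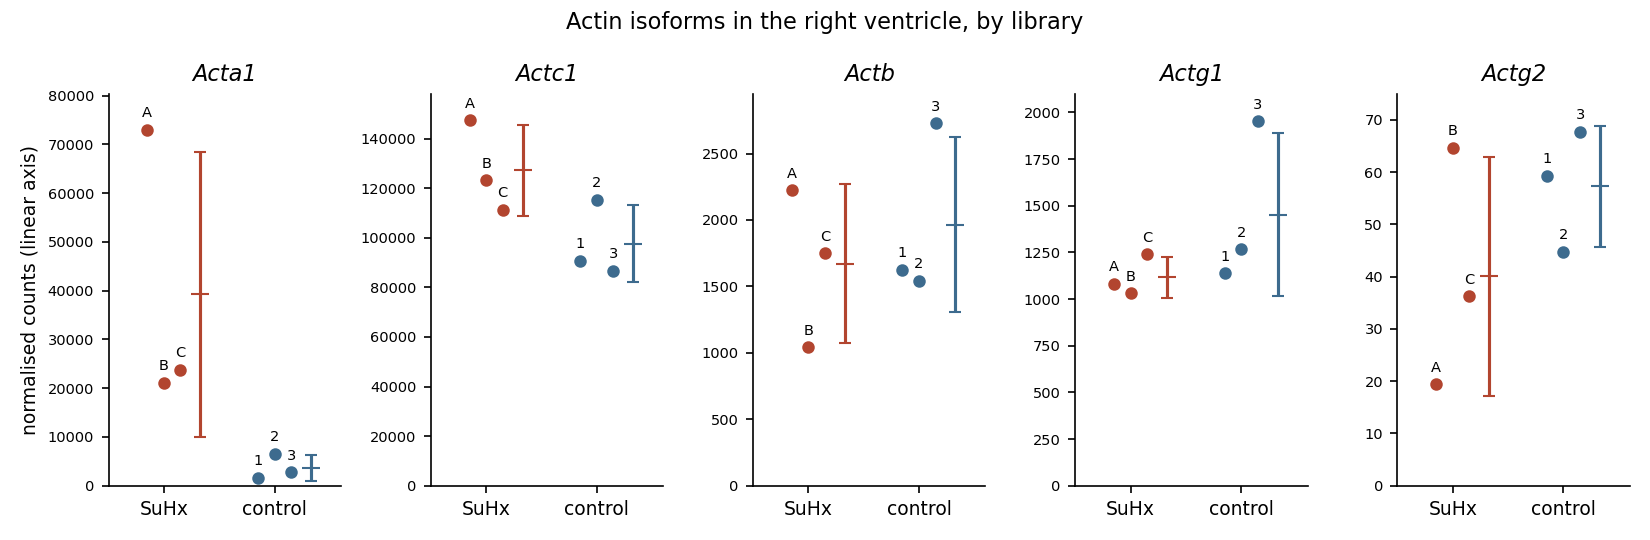
Normalised counts of the 5 actin isoforms (linear axes from 0, a scale of its own in each panel) in SuHx A, B and C and controls 1, 2 and 3, with bars for the mean ± SD of 3 libraries. Acta1 runs from 21077 to 72990 in SuHx and from 1592 to 6589 in control with no overlap, and the groups overlap for Actc1, Actb, Actg1 and Actg2.

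Actc1, the cardiac α-actin, did not pass the test. It was at 147435, 123189 and 111299 normalised counts in SuHx libraries A to C, against 90734, 115407 and 86674 normalised counts in controls 1 to 3. SuHx C lay below control 2, so the groups overlapped, although SuHx A and B lay above every control. It averaged 127308 ± 18417 normalised counts over the SuHx libraries and 97605 ± 15550 over the controls (SD, n = 3 each). On the log2 scale this was a difference of 0.39 (standard error 0.22, 95% interval -0.14 to 0.91, adjusted p = 0.429 from limma). The interval allows a rise of up to 0.91 log2 units and a small fall, and with all libraries scaled to the same total the value was 0.064, where the median of all genes was -0.31. Actc1 varied less between libraries than Acta1, with a coefficient of variation of 14.5% in SuHx and 15.9% in control, whereas that of Acta1 was 74.4% in SuHx and 71.6% in control.

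Relative to Actc1, Acta1 was higher in every SuHx library than in every control. Actc1 was 2.02, 5.84 and 4.68 times Acta1 in SuHx libraries A to C, against 57.0, 17.5 and 31.3 times in controls 1 to 3, as ratios of normalised counts. On the log2 scale the ratio of Acta1 to Actc1 averaged -1.93 ± 0.81 in SuHx and -4.98 ± 0.85 for the controls (SD, n = 3 each). The difference was 3.05 log2 units, without overlap between the groups (p = 0.1, the lowest the exact permutation can give), and it ran from 2.59 to 3.47 with single libraries left out. The ratio sets 2 rows of the same library against each other, so a scaling factor common to a library's genes nearly cancels in it.

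**Figure D2:**
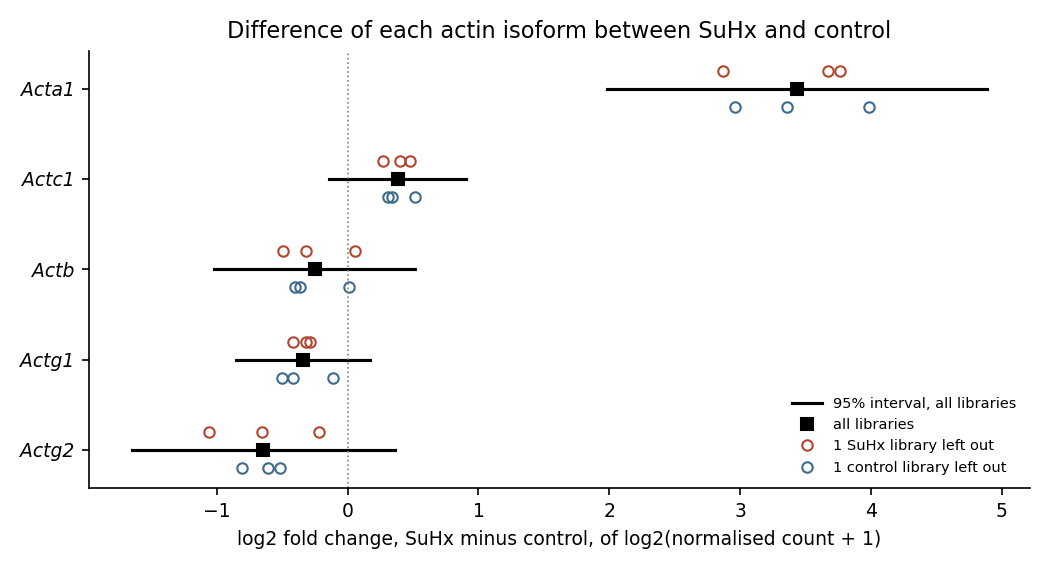
Log2 fold change (SuHx minus control) of each actin isoform on the scale of log2(normalised count + 1): squares and lines are the value and 95% interval over all 6 libraries, open circles the value with 1 SuHx or 1 control library left out. Acta1 stays between 2.87 and 3.98 in all 6 cases, and the intervals of the other isoforms hold 0.

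Counted as a share of the actin sum, the summed normalised counts of the 5 isoforms, Acta1 took 32.6%, 14.4% and 17.2% in SuHx libraries A to C, against 1.67%, 5.28% and 2.94% in controls 1 to 3. Its mean share was 21.4% ± 9.81 over the SuHx libraries and 3.29% ± 1.83 over the controls (SD, n = 3 each), a difference of 18.1 percentage points (exact permutation p = 0.1, two-sided, the lowest it can give). Actc1 took 65.9%, 84.1% and 80.6% in SuHx libraries A to C, against 95.4%, 92.4% and 92.0% in controls 1 to 3. Every SuHx library thus lay below every control in the share of Actc1, by 16.4 percentage points on average, although the counts of Actc1 overlapped between the groups. Shares within a sum move against each other by construction, and a lower share of Actc1 is no fall of Actc1. They are shares of counts, not divided by transcript length, and do not give the proportions of actin molecules.

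The actin sum itself was 223749, 146404 and 138114 normalised counts in SuHx libraries A to C, against 95147, 124851 and 94188 in controls 1 to 3, with no overlap. Without Acta1 it was 150759, 125326 and 114326 in SuHx, against 93556, 118262 and 91423 in control, where SuHx C lay below control 2. Of all counts outside the mitochondrial genome, actins made up 3.605%, 2.47% and 2.41% in SuHx libraries A to C, against 1.74%, 2.10% and 1.78% in controls 1 to 3. Over whole libraries the actin sum took 1.51%, 0.802% and 1.08% in SuHx, against 0.820%, 1.01% and 0.768% in control, which overlapped. Mitochondrially encoded transcripts held 55.0% to 67.5% of a SuHx library and 52.0% to 56.9% of a control library, and SuHx B, where their share was 67.5%, had the smallest actin share of its group on that scale.

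**Figure D3:**
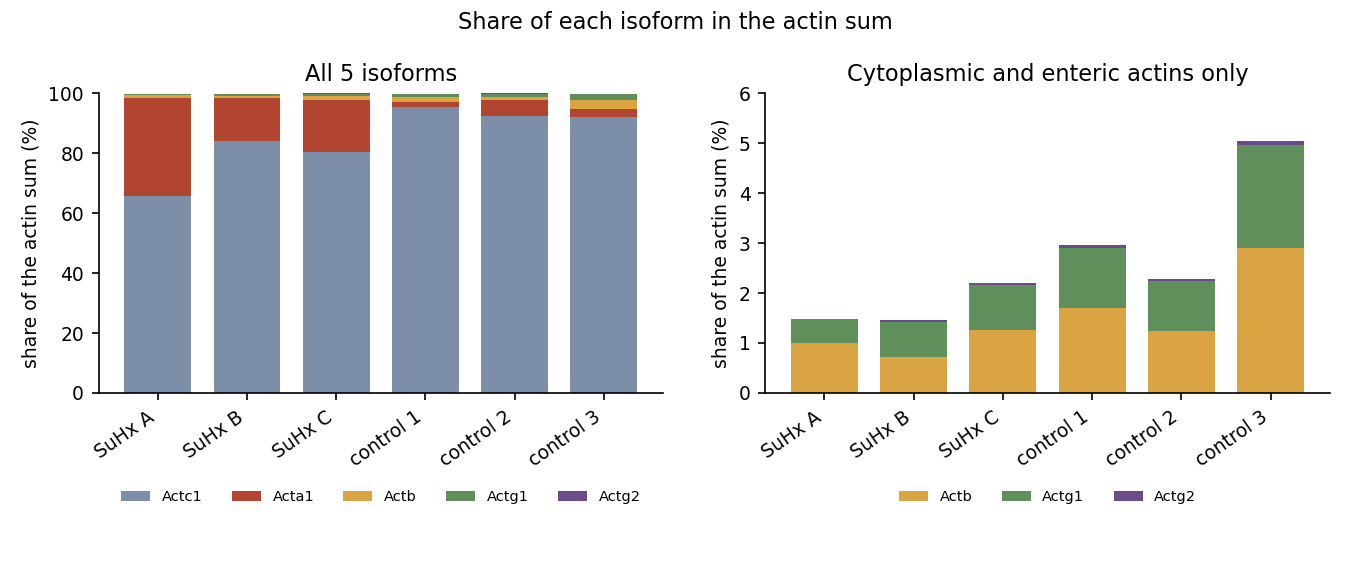
Share of each isoform in the actin sum (%, stacked bars, 1 bar per library, SuHx at left). On the left axis Acta1 takes 14.4% to 32.6% in SuHx and 1.67% to 5.28% in control; the right axis, cut to 0 to 6%, shows Actb, Actg1 and Actg2, whose sum is smallest in SuHx A and B and largest in control 3.

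Actb and Actg1, the cytoplasmic actins, did not pass the test. Actb was at 2224, 1041 and 1751 normalised counts in SuHx libraries A to C, against 1624, 1543 and 2727 in controls 1 to 3, and the groups overlapped. Its log2 fold change was -0.25 (standard error 0.33, 95% interval -1.02 to 0.52, adjusted p = 0.735 from limma), and it was 0.056 without SuHx B and 0.010 without control 3, so its sign rested on those libraries. Actg1 was at 1081, 1031 and 1241 normalised counts in SuHx libraries A to C, against 1138, 1268 and 1954 in controls 1 to 3. Only control 3 lay clearly apart for Actg1, and the SuHx libraries differed little among themselves (coefficient of variation 9.80%, and 30.2% in control). The log2 fold change of Actg1 was -0.34 (standard error 0.22, 95% interval -0.85 to 0.17, adjusted p = 0.469 from limma), and it was -0.11 without control 3. With all libraries at the same total, Actg1 was -0.66 (adjusted p = 0.214 from limma) and Actb -0.57 (0.382), where the median of all genes was -0.31. As a share of the library total, Actg1 lay lower in every SuHx library than in every control, at 0.00731%, 0.00565% and 0.00973% in SuHx libraries A to C, against 0.00981%, 0.0102% and 0.0159% in controls 1 to 3, and 26.1% of all genes did so on that scale. Of counts outside the mitochondrial genome, Actg1 took 0.0216% in SuHx C and 0.0208% in control 1, so the groups overlapped.

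Control 3 held the highest counts of both cytoplasmic actins. The same library held the immediate early gene Fos, a classic SRF target, at 4412 normalised counts, whereas SuHx libraries A to C held it at 102, 62.9 and 132 and controls 1 and 2 at 607 and 101, and its part in the Actb and Actg1 values was not tested. As shares of the actin sum, Actb and Actg1 together took 1.48%, 1.42% and 2.17% in SuHx libraries A to C, against 2.90%, 2.25% and 4.97% in controls 1 to 3. These groups did not overlap (exact permutation p = 0.1, two-sided, the lowest it can give), but SuHx C and control 2 lay close together, and the denominator holds the Acta1 rise. Actb exceeded Actg1 by a ratio of counts of 2.06, 1.01 and 1.41 in SuHx libraries A to C, against 1.43, 1.22 and 1.396 in controls 1 to 3, and on the log2 scale the ratio differed by 0.092 (exact permutation p = 0.8, two-sided).

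Actg2, the enteric smooth muscle actin, was the isoform of lowest count and did not pass the test. It was at 19.4, 64.7 and 36.2 normalised counts in SuHx libraries A to C, against 59.3, 44.8 and 67.8 in controls 1 to 3. SuHx B lay among the controls, and SuHx A, the library of highest Acta1, had the lowest Actg2. The log2 fold change was -0.64 (standard error 0.43, 95% interval -1.65 to 0.36, adjusted p = 0.490 from limma). It was -1.06 without SuHx B and -0.22 without SuHx A. At the same total it was -0.96 (adjusted p = 0.215 from limma). It took no more than 0.0720% of the actin sum in any library, and its share of the library total, like that of Actg1, was lower in every SuHx library than in every control. This held for 26.1% of all genes, and SuHx B (0.000354%) lay close to control 2 (0.000361%). Of counts outside the mitochondrial genome, Actg2 took 0.00109% in SuHx B and 0.000754% in control 2, so the groups overlapped. Cnn1, a calponin of contractile smooth muscle, lay at 16.3, 63.8 and 46.7 normalised counts in SuHx libraries A to C, against 52.6, 40.6 and 77.7 in controls 1 to 3, with the same library lowest and the same library highest as for Actg2 (adjusted p = 0.607 from limma). Of 10 smooth muscle markers, 8 had a row and 0 of those 8 were called (unadjusted p under 0.05 for 1, higher in SuHx), while Myh11 and Lmod1 had no row. Their summed level was 7976 to 9015 normalised counts in SuHx and 4797 to 6229 in control, led by Synpo2, which cardiomyocytes also use, at 5148, 5483 and 5970 in SuHx libraries A to C, against 2782, 3400 and 852 in controls 1 to 3 (adjusted p = 0.180 from limma, and 0.0285 without control 3). Smtn, the smoothelin gene and the marker of next highest mean, differed by -0.082 log2 units (adjusted p = 0.829 from limma).

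Among 7687 genes of a mean of at least 50 normalised counts, those most like Acta1 over the 6 libraries were Ankrd23, Xirp2 and Akip1. Likeness was the root mean square difference of the log2 profiles, each centred on its own mean, and it was 0.63, 0.66 and 0.66 log2 units for these genes, where Acta1 itself spread by 1.91 about its mean. Ankrd23, an ankyrin repeat protein of the sarcomere, was at 2279, 822 and 856 normalised counts in SuHx libraries A to C, against 38.0, 75.01 and 43.9 in controls 1 to 3. As for Acta1, SuHx A was the highest library and control 2 the highest control. Xirp2, a Xin actin-binding repeat protein of the intercalated disc, was at 40035, 24107 and 30624 in SuHx, against 3340, 4321 and 2091 in control. Akip1, which binds protein kinase A, was at 703, 407 and 576 in SuHx, against 30.2, 54.2 and 78.6 in control. Ankrd23, with a log2 fold change of 4.52, passed with each library left out in turn, and Akip1, at 3.41, did not pass without SuHx C (adjusted p = 0.0597 from limma). The nearest genes of Actc1 (Eef1e1, Tfdp2 and Sh3bgr, 0.046 to 0.064 log2 units), of Actb (Ccdc88c, Sept4 and Jag2, 0.092 to 0.108), of Actg1 (Ostf1, Ankzf1 and Fam98c, 0.048 to 0.066) and of Actg2 (Larp6, Ehd3 and Lrif1, 0.175 to 0.198) lay closer in log2 units, about members that spread less (by 0.26, 0.43, 0.30 and 0.61). Since all these genes were picked for profiles like those of the isoforms over the same libraries, whether they pass the test follows from that choice and is no further evidence.

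Other genes that the loaded heart is known to raise or lower with Acta1 were called too. All 9 genes of this load-responsive list had a row, and 8 passed the filter on low values. Of these 8 genes, 4 passed as higher, 1 passed as lower and 3 missed the threshold, where 1.55% and 0.671% of all genes were higher and lower. The median log2 fold change of the 8 was 2.24. Xirp2, counted among the 4, is also among the genes most like Acta1 named above. Fhl1, a LIM protein, was at 7521, 2331 and 1778 normalised counts in SuHx libraries A to C, against 101, 126 and 33.9 in controls 1 to 3, with SuHx A highest as for Acta1. Its log2 fold change was 5.36 and those of Ankrd1, Nppb and Xirp2 were 2.03, 2.29 and 3.31 (adjusted p = 0.0125, 0.0252, 0.0376 and 0.00568 from limma). Myh7, the slow β-myosin heavy chain, was at 251482, 221958 and 149937 in SuHx, against 25922, 88972 and 38511 in control, with control 2 the highest control as for Acta1, but did not pass (log2 fold change 2.19, adjusted p = 0.0630 from limma, and 0.0303 without control 2). Myh6, the fast α-myosin heavy chain, fell to 141675, 131261 and 173603 in SuHx, against 376706, 386592 and 320910 in control (log2 fold change -1.28, adjusted p = 0.0427 from limma). Nppa was at 15462, 15802 and 17508 in SuHx and at 36639, 57.3 and 43.1 in controls 1 to 3, and control 1, the library of lowest Acta1, thus held it above every SuHx library (adjusted p = 0.315 over all libraries and 1.59e-05 without control 1). Fhl1 did not pass without SuHx C, nor Ankrd1 without any single SuHx library, nor Nppb without any single SuHx library or control 2, and of these cases Myh6 passed without control 3 alone. With all libraries kept, Myh6 missed the threshold when low values were left in (adjusted p = 0.131 from limma), and Ankrd1 (0.0508) and Nppb (0.0768) with no mean-variance trend. Myh7 passed at the same total (adjusted p = 0.0327 from limma).

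**Figure D4:**
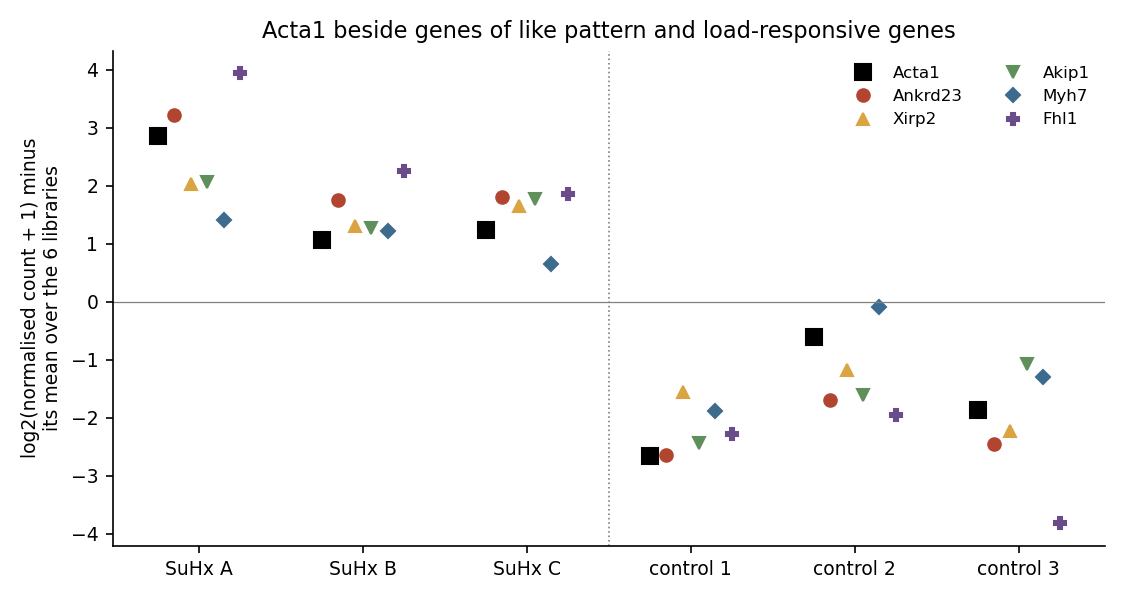
Log2(normalised count + 1) of 6 genes, each minus its own mean over the 6 libraries, by library (SuHx at left): Acta1, the genes most like it (Ankrd23, Xirp2 and Akip1) and the load-responsive genes Myh7 and Fhl1. All lie above 0 in SuHx and below 0 in control, SuHx A is the highest library for all 6, and control 2 is the highest control for all but Akip1.

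Among proteins that build, cap, link and regulate actin filaments, most genes missed the threshold. In 6 lists with 97 tested genes, 4 genes (4.12%) passed as higher and 2 (2.06%) as lower, where 1.55% and 0.671% of all genes did so. Before adjustment, limma gave 24 higher and 5 lower with p under 0.05, where 9.61% of all genes were higher and 7.59% lower on that rule. The median of the log2 fold changes was 0.21. Every SuHx library lay above every control for 30 of the 97 and below for 8, where 12.9% and 11.6% of all genes did so. Enah, an Ena/VASP protein that promotes filament elongation, was at 777, 756 and 617 normalised counts in SuHx libraries A to C, against 195, 178 and 141 in controls 1 to 3. Its log2 fold change was 2.06 (standard error 0.18, adjusted p = 0.0054 from limma). Enah passed with each library left out in turn. Flnc, the filamin of muscle that crosslinks actin at Z-discs, was at 11205, 7991 and 9620 in SuHx, against 3644, 3579 and 2108 in control (log2 fold change 1.66, adjusted p = 0.0261 from limma). Together with Xirp2, 3 of 19 crosslinking and anchoring genes were higher (15.8%, against 1.55% of all genes) and 0 lower (median log2 fold change 0.39). Diaph1, a formin that nucleates and elongates filaments, was the only nucleation gene called of 19, at 507, 512 and 425 in SuHx against 279, 278 and 304 in control (log2 fold change 0.74, adjusted p = 0.0488 from limma, and 0.290 with all libraries at the same total). Diaph1 also missed the threshold with no filter on low values (0.0519), at the same total without mitochondrial genes (0.0803) and with no mean-variance trend (0.0907), and Flnc with no trend (0.0573), as adjusted p from limma.

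Of 10 tested capping genes, Tmod4, a tropomodulin that caps pointed ends, was lower (1 of 10, against 0.671% of all genes) and 0 were higher. Tmod4 was at 69.1, 85.4 and 49.6 normalised counts in SuHx, against 186, 269 and 218 in control (log2 fold change -1.72, adjusted p = 0.0223 from limma). Of 19 genes of SRF and MRTF regulation, 0 were higher by limma (2 before adjustment at a p under 0.05), and their log2 fold changes had a median of 0.24. Srf itself was at 1269, 1268 and 1110 in SuHx, against 1047, 1044 and 813 in control, with no overlap but without passing (log2 fold change 0.34, adjusted p = 0.320 from limma). No gene was called among 13 that bind or sever actin monomers and filaments (before adjustment, limma gave 3 higher and 1 lower with p under 0.05) or among 17 that fold or modify actin (3 and 1). The highest means there were those of Gsn, the severing protein gelsolin (log2 fold change -0.80, adjusted p = 0.114 from limma), and Tmsb4x, the monomer-sequestering thymosin β4 (-0.21, adjusted p = 0.773), and of Cct5 (0.17, adjusted p = 0.520) and Cct7 (-0.072, adjusted p = 0.801), subunits of the TRiC chaperonin that folds actin. Without single libraries, Diaph1 did not pass in 5 of 6 cases (it passed without control 3), Flnc not without SuHx A, B or C or control 2, Tmod4 not without SuHx A or C or control 2, and Xirp2 not without SuHx C (adjusted p = 0.0501). The number of pathway genes higher was 2 without SuHx A or B, 1 without SuHx C and 9 without control 3.

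Markers of cells in which other actins prevail were read in the same libraries. Cardiomyocyte markers, of which 10 of 11 had a row, were present in every library and summed to 426261 to 467341 normalised counts in SuHx and 631078 to 719789 in control, with Myh6 the only one called, lower. Myh6 alone averaged 148846 in SuHx and 361403 in control, and weighs heavily in these sums. The median log2 fold change of the 10 markers was 0.079. Skeletal muscle markers, which bear on Acta1, were low. Of 15, 7 had a row, with Myh1, Myh4, Tnnc2, Mybpc1, Actn3, Pvalb, Myog and Myod1 without one, and the 7 summed to 201 to 214 in SuHx and 77.7 to 102 in control. Of 3 that passed the filter on low values, Mybpc2, a fast myosin-binding protein, was called, at 138, 125 and 123 in SuHx, against 29.2, 24.0 and 8.93 in control (log2 fold change 2.72, adjusted p = 0.0261 from limma), and it was not without SuHx A, B or C or control 2, nor with no mean-variance trend (adjusted p = 0.0517). That is 1 of 3 genes, against 1.55% of all genes. The sum of these markers was 214, 201 and 207 in SuHx libraries A to C, where Acta1 was at 72990, 21077 and 23787. Their part in the Acta1 difference was not tested. Myofibroblast markers summed to 5198 to 6385 in SuHx and 856 to 2080 in control, and of 8 tested Postn, Thbs4 and Cilp were higher (37.5%, against 1.55% of all genes) and 0 lower (log2 fold changes 1.96, 5.61 and 3.38, adjusted p = 0.0471, 0.0125 and 0.0157 from limma), and none of these 3 passed without SuHx A or C. Postn passed without control 1 alone, Thbs4 did not pass without SuHx B either, and Cilp not without control 2. With all libraries kept, Postn missed the threshold when low values were left in (adjusted p = 0.0539 from limma), at a mean of at least 50 (0.0520), at the same total with mitochondrial genes (0.072) and without them (0.0580), and with no trend (0.0777). Acta2, by which such cells are usually known, was not analysed here, and their part in the actin values was not tested. Of 8 tested fibroblast, 7 pericyte, 7 endothelial, 4 leukocyte and 6 atrial markers, 0 were called by limma (2, 2, 0, 0 and 0 at an unadjusted p under 0.05). The markers of highest mean had log2 fold changes of -0.80 for Gsn and 0.031 for Dcn (fibroblast), 0.26 for Abcc9 and 0.88 for Mcam, which passed without control 3 (pericyte), 0.29 for Vwf and 0.0053 for Kdr (endothelium), -0.15 for Ptprc and 0.88 for Cd68 (leukocyte) and 5.16 for Nppa and -0.096 for Dkk3 (atrial). The medians over the tested markers were -0.30 (fibroblast), 0.26 (pericyte), -0.26 (endothelium), 0.71 (leukocyte) and -1.72 (atrial, lowest -3.74). Atrial markers summed to 16984 to 19424 in SuHx, against 53826 in control 1 and 2265 and 1262 in controls 2 and 3. Nppa, shown above with the load-responsive genes, alone gave 15462, 15802 and 17508 of the sums in SuHx libraries A to C. In controls 1 to 3 it gave 36639, 57.3 and 43.1. Without control 1 the log2 fold change of Acta1 was 2.96.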

How the data were processed

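The authors sequenced RNA of rat right ventricles, of which 3 SuHx and 3 control libraries were used here. The notes of the authors name Salmon (version 0.14.1), DESeq2 (version 1.24.0) for the normalisation by the authors, and the mouse build GRCm38.p6. Since rat names occur among the genes, it is not settled which index was used. The deposited signal per gene and library, called normalised counts here, came from the authors' normalisation and totalled 12754296 to 18249330 in SuHx and 11607609 to 12393415 in control. In each library, 92.0% to 96.8% of values below 12 fell on whole multiples of 1 step (tolerance 0.1), too few to treat them all as reads, so reads were not rebuilt, no count test was run and depth in reads is not given. An entry with no gene name (at most 0.00514% of a library) was left out. Of the gene names, 11247 are current rat symbols of RefSeq (GRCr8), 753 are synonyms and 958 are neither.

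Genes averaging 10 or more normalised counts were compared on the scale of log2(normalised count + 1) with limma 3.58.1 in R 4.3.3 (mean-variance trend, two-sided, Benjamini-Hochberg), and genes were called at an adjusted p under 0.05. The procedure was tested on simulated data. Single values were compared by an exact permutation test. The members, lists and tests were chosen with earlier results of these data known. Genes were named by rule: the 6 isoforms, from every list at most 4 genes that were called, or the 2 highest in mean where none was, and the 3 genes most like each isoform. Myh7, Srf, Cnn1 and Fos were added after their values were seen. Alternatives changed the pseudocount (0.5 or 5), the filter (none or 50), the scaling, the moderation and the libraries. The share per transcript length was not run, since no transcript lengths were given. Some genes of the lists are counted but not reported by name here. Figures were drawn with matplotlib 3.10.9.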

Additional observations from a re-analysis of the deposited data

How the results depend on the processing

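Of 197 values of the main results under alternatives, 159 kept their direction and their side of the threshold, or stayed within the spread of the libraries or 1.5 times the count. With all libraries at the same total, 90 genes were higher and 191 lower, and all genes had a median log2 fold change of -0.31. With no mean-variance trend, 83 were higher and 38 lower, 2 genes of the actin pathway lists were higher, and Acta1 did not pass (log2 fold change 3.43, adjusted p = 0.0803), nor with robust moderation (3.43, adjusted p = 0.0531). The cause was not tested. Leaving out 1 library gave 11 to 266 genes higher and 6 to 136 lower, 1 to 9 of the pathway lists higher and 0 to 2 lower, and log2 fold changes of 2.87 to 3.98 for Acta1 and -0.49 to 0.056 for Actb, whose sign turned without SuHx B (0.056) and without control 3 (0.010). Those fits have fewer libraries. As shares of the library total in place of the actin sum, the differences (SuHx minus control) were 0.236 percentage points for Acta1, 0.0420 for Actc1, -0.00473 for Actb, -0.00442 for Actg1 and -0.000218 for Actg2.

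Genes that did not pass turned sign at the same total (log2 fold changes Cct5 -0.15, Abcc9 -0.063, Dcn -0.29, Vwf -0.028, Kdr -0.32) and at the same total without mitochondrial genes (Dcn -0.067, Kdr -0.092). With single libraries left out, the ranges that include 0 were -0.49 to 0.25 for Dkk3, -0.12 to 0.19 for Kdr, -0.36 to 0.19 for Ptprc, -0.67 to 0.029 for Lrif1, -0.17 to 0.25 for Dcn, -0.47 to 0.054 for Ccdc88c, -0.38 to 0.21 for Jag2, -0.43 to 0.17 for Tmsb4x and -0.16 to 0.054 for Smtn. No paired analysis was possible because the columns of the SuHx libraries carry no replicate numbers.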

Other observations

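Some genes of the actin pathway lists were listed at 0 in libraries where related genes were not, and a listed 0 need not mean that no transcript was there. Rock2, a kinase downstream of RhoA, was at 303 normalised counts in SuHx B and listed at 0 in the other 5 libraries. Wasf2, an activator of the Arp2/3 complex, was at 33.3 and 174 in SuHx A and B and listed at 0 in SuHx C and in all 3 controls. Neither was called (adjusted p = 0.608 for Rock2 and 0.309 for Wasf2 from limma), and both were chosen after their values were seen.

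Several further genes of the thin filament and its anchors had every SuHx library above every control without passing, also chosen after their values were seen. Of all genes tested, 12.9% had every SuHx library above every control and 11.6% every one below. Of the 97 tested genes of the actin pathway lists, 30 lay above in this way and 8 below. Among those below was Pfdn6, of the genes that fold or modify actin (log2 fold change -1.01, adjusted p = 0.05955 from limma). Lmod2, the leiomodin that lengthens cardiac thin filaments, was at 4770, 3516 and 4327 normalised counts in SuHx libraries A to C, against 1823, 2788 and 2757 in controls 1 to 3 (log2 fold change 0.79, adjusted p = 0.115 from limma). Tmod1, the tropomodulin of the heart, was at 4231, 3412 and 4396 in SuHx, against 2958, 2631 and 2128 in control (0.65, adjusted p = 0.122 from limma), whereas its relative Tmod4 was lower in SuHx. Svil, the supervillin gene, and Tln1, the talin that joins integrins to actin, had log2 fold changes of 0.74 and 0.65 (adjusted p = 0.0598 and 0.0776 from limma).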
